A study of Mus musculus with 8 samples.

Results

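The genes described here are 34 genes of mitosis, among the 23284 genes counted in peripheral retina at postnatal day 12. They were taken from the count files by symbol, as a list of cyclins, mitotic kinases, kinetochore and checkpoint proteins, cytokinesis factors and regulators of the anaphase-promoting complex. All 34 were in the files and all 34 passed the filter on low counts. The study compared 4 RNA-seq libraries labelled Rb null with 4 labelled Rb null, TET-MYCN, called Rb-null 1 to 4 and TET-MYCN 1 to 4 below. Both groups carry Cre recombinase under the Pax6 alpha enhancer, which acts in the peripheral retina, and in the first group it deletes floxed Rb1 (Rblox/lox), the retinoblastoma tumour suppressor gene. The TET-MYCN group adds a MYCN transgene under a tetracycline-responsive promoter (TRE-MYCN) and a reverse tetracycline transactivator at Rosa26 behind a Cre-removable stop (Rosa26LSL-RTTA). The series title and the genotype label give this group the Rb1 deletion too, although the design text leaves its floxed allele out, and the labels do not mention doxycycline. No group with intact Rb1 is included, cells without Cre remain in the dissected tissue, and the labels do not say whether libraries come from different mice. The p-values below therefore reflect only how much the deposited libraries vary, which may be technical. RNA was selected for poly(A) before sequencing.

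Mitosis is driven by cyclin A and cyclin B bound to the kinase Cdk1, which Cdc25 phosphatases switch on. Kinetochores built on the centromeric histone Cenpa hold chromosomes to spindle microtubules, and the spindle checkpoint blocks the ubiquitin ligase APC/C until every kinetochore is attached. Cdc20 then activates the APC/C, which with the ubiquitin-conjugating enzyme Ube2c marks cyclin B for destruction and starts anaphase and cytokinesis. Most retinal progenitors of the mouse have left the cell cycle by the age studied, and Rb1 is one of the genes that hold differentiating retinal cells out of it. Genes of this set are transcribed late in the cell cycle through the cell cycle genes homology region (CHR), which recruits the MuvB complex with Mybl2 and Foxm1, and through CCAAT boxes, which bind NF-Y.

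RefSeq promoter windows (build GRCm38.p6, 250 bases before to 50 after the gene start) were given for 27 of the 34 genes. A CHR was counted as TTTGAA or TTCGAA and a CCAAT box as CCAAT, each on either strand. At least one CHR match was found in 20 of the 27 genes, 74.1% (exact binomial 95% interval 53.7% to 88.9%), against 21.7% of all 27025 genes in the table. A CCAAT box was also found in 20 of 27, against 41.1% of all genes, and 18 of 27 (66.7%) held both, against 8.61%. The CHR matches lay around the gene start. A match that reached past the start was present in 16 of 27 genes, against 3.10% of all genes, whereas matches wholly before the start were present in 8 of 27 (29.6%), against 19.6%. The MYC-type E-box CACGTG was found in 2 of 27 (Ttk and Anln, 7.41% against 8.09% of all genes). E2F sites, searched as TTTCGCGC, TTTGGCGC, TTTCCCGC or TTTGCCGC on either strand, were found in 0 of 27 windows (exact binomial upper limit 12.8%), against 2.60% of all genes. These are letter matches in a short window, and they say nothing of binding in these retinas.

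The 26 bases around the last CHR of 5 genes are shown because the match begins shortly past the gene start, at position 5 (Ccnb2) to 33 (Aurka) counted from 1 at the start. The match is in capitals and each line reads 5′ to 3′ on the gene's strand. They lie at chr5:30666892-30666917 (Cenpa, plus strand), chr9:70421535-70421560 (Ccnb2, minus strand), chr2:127831830-127831855 (Bub1, minus strand), chr7:122159455-122159480 (Plk1, plus strand) and chr2:172370523-172370548 (Aurka, minus strand) of GRCm38.p6.
Cenpa: cgggtgatttTTTGAActgctggcga
Ccnb2: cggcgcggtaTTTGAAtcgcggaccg
Bub1: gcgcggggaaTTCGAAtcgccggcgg
Plk1: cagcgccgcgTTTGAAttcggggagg
Aurka: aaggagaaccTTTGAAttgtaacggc

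The 150 bases before the gene start are shown for genes with non-overlapping libraries (Ube2c, Cdc20 and Ccnb2), for 2 of the most highly counted genes (Top2a and Mki67), and for Mad2l1, which had neither motif. CHR and CCAAT matches on either strand are in capitals, and each line reads 5′ to 3′ on the gene's strand. They lie at chr2:164769779-164769928, plus strand (Ube2c), chr4:118437344-118437493, minus strand (Cdc20), chr9:70421555-70421704, minus strand (Ccnb2), chr11:99024190-99024339, minus strand (Top2a), chr7:135716380-135716529, minus strand (Mki67) and chr6:66535071-66535220, plus strand (Mad2l1) of GRCm38.p6.
Ube2c: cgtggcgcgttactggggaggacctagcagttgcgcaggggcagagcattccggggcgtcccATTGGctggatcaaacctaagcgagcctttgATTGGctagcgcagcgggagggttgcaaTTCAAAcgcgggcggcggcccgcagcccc
Cdc20: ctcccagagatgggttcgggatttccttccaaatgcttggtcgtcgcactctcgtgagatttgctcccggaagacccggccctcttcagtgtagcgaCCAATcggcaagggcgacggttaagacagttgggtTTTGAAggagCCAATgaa
Ccnb2: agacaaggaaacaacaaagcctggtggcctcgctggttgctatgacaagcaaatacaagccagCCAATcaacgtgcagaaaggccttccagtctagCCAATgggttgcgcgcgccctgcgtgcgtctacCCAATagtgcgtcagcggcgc
Top2a: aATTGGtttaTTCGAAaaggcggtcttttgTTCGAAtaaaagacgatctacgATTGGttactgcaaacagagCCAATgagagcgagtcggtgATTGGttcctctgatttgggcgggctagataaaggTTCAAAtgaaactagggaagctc
Mki67: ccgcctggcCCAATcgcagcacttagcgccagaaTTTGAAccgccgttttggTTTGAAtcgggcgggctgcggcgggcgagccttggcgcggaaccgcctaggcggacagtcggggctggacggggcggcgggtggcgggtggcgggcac
Mad2l1: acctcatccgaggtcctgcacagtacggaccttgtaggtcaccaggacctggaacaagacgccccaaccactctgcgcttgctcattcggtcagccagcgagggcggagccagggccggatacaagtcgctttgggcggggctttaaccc

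The stretch of Ube2c held 1 CHR and 2 CCAAT boxes, that of Cdc20 held 1 and 2, and that of Ccnb2 held 3 CCAAT boxes before a CHR that lies past the start. Top2a had 3 CHR matches and 4 CCAAT boxes in these 150 bases, and Mki67 had 2 and 1. Pairs of CCAAT boxes 30 to 35 bases apart, a spacing chosen after the sequences were seen, were present in 6 of 27 genes (22.2%), against 1.85% of all genes. A CHR was found in 5 of 7 genes whose libraries did not overlap between the groups and in 15 of 20 whose libraries overlapped, and a CCAAT box in 6 of 7 and 14 of 20.

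**Figure D1:**
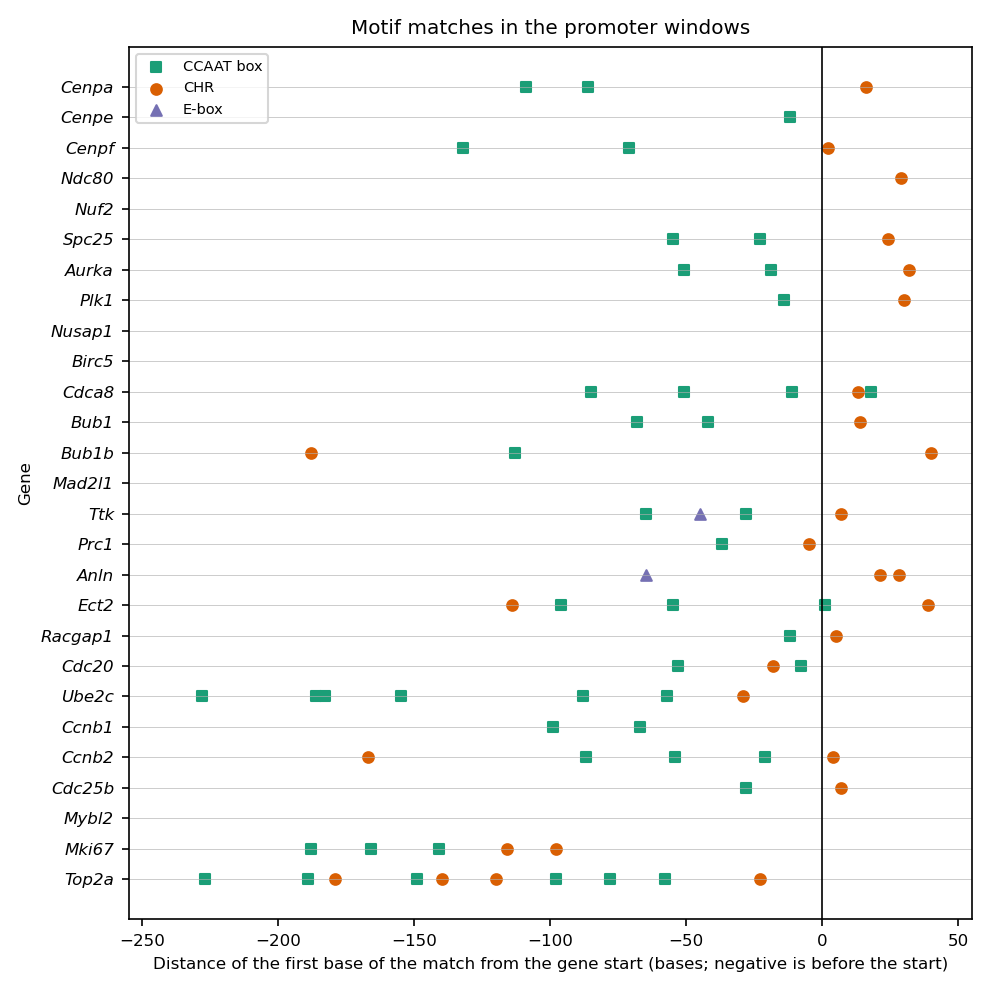
Positions of CCAAT boxes (squares), CHR matches (circles) and E-boxes (triangles) on either strand in the promoter windows of 27 mitosis genes; the x axis is the distance in bases from the gene start and each row is a gene (the first window where a gene has several). CHR matches cluster just past the start, with CCAAT boxes upstream of them, and Nuf2, Nusap1, Birc5, Mad2l1 and Mybl2 have none of the 3.

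Gene counts per library ran from 14872131 to 22873979, and the members took 30722 to 92451 of them. The lowest count of any member was 168, for Cdc25c in Rb-null 3, so counting error was small beside the spread between libraries. Mouse Mycn was at 246, 339, 108 and 232 CPM (counts scaled to a common library size with TMM factors) in Rb-null 1 to 4 and at 201, 219, 272 and 276 CPM in TET-MYCN 1 to 4. Rb1 was at 184, 174, 147 and 138 CPM and at 151, 179, 164 and 123 CPM. Neither gene separated the groups, and reads of the transgene need not be counted at the mouse gene, so directions below rest on the labels.

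None of the 34 mitosis genes passed the test between the groups. After adjustment over all 15106 genes tested 0 members were called by edgeR's quasi-likelihood test, against 9 of all genes (0.0596%), and the smallest adjusted p of a member was 0.155, for Ube2c. DESeq2 called 5 of the 34 members (Cenpa, Cdc20, Ube2c, Ccnb1 and Cdc25c), all higher in TET-MYCN. Of all genes tested it called 530 in either direction (3.51%), 323 of them higher and 207 lower. The limma-voom test called 0 members and 0 genes. The log2 fold change was above 0 in all 34, its median being 0.42 and its range 0.18 to 0.86, against 52.2% positive and a median of 0.01 over all genes tested. At an unadjusted p under 0.05, 19 of 34 (55.9%) were higher in TET-MYCN and 0 lower, where 8.06% of all genes tested were higher. In 9 genes (26.5%) every TET-MYCN library stood above every Rb-null library, against 4.36% of all genes tested. These 9 were Ube2c, Cdc20, Ccnb1, Ccnb2, Cdc25c, Cenpa, Cdca8, Mad2l1 and Spc24. Mitosis genes vary together from library to library, so the 34 values are not 34 independent observations.

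The Rb-null libraries differed among themselves by as much as the groups did. Rb-null 3 had the lowest level of all 8 libraries in 33 of the 34 genes, and Rb-null 2 had the highest of its group in 28. The mean log2 CPM of the 34 genes was 6.22, 6.33, 5.40 and 5.86 in Rb-null 1 to 4 and 6.34, 6.35, 6.52 and 6.63 in TET-MYCN 1 to 4. Rb-null 2 was thus nearly level with TET-MYCN 1 and 2, and Rb-null 3 and 4 stood below all other libraries. Without Rb-null 3 the median log2 fold change was 0.28 and 33 of 34 genes were positive. In that fit 11 were higher at an unadjusted p under 0.05 (edgeR), where 5.22% of all genes tested were higher. That count was 10 without Rb-null 4 (5.56% of all genes tested) and 10 without TET-MYCN 4 (5.89%). Leaving out Rb-null 3 made the log2 fold change of 16 members smaller by over 1.5 times or turned its sign, and leaving out any other library did so for 0 to 3.

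**Figure D2:**
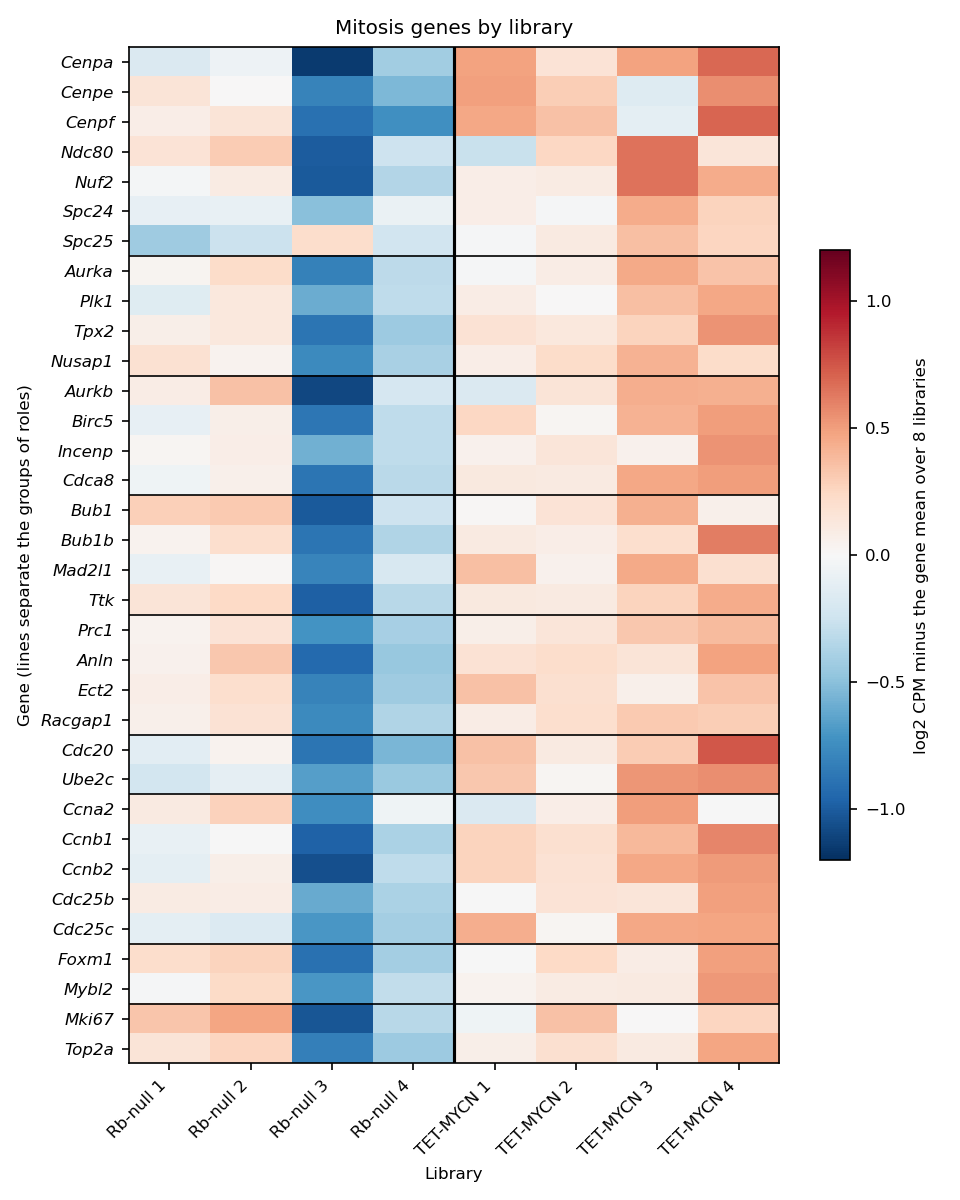
Log2 CPM of each of the 34 genes (rows, grouped by role) in each of the 8 libraries (columns), minus the gene's mean over the 8 libraries; red is above that mean and blue below, and the vertical line separates the groups. Rb-null 3 is the lowest column in 33 of 34 rows, all but Spc25.

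The spread within a group was wider in Rb-null than in TET-MYCN for 33 of 34 members, all but Ube2c, whereas this held for 30% of all genes tested. The median SD of log2 CPM over the members was 0.45 in Rb-null and 0.21 in TET-MYCN, against 0.17 and 0.25 over all genes tested. Without Rb-null 3, the SD was wider in Rb-null for 20 of 34 members, against 24.4% of all genes, with a median of 0.27. Mki67, the antigen of proliferating nuclei, showed the widest range, at 845, 930, 330 and 532 CPM in Rb-null 1 to 4 and 647, 854, 674 and 804 CPM in TET-MYCN 1 to 4. Its highest Rb-null library was 2.82 times its lowest, while the TET-MYCN libraries spanned 1.32 times and lay inside the Rb-null range.

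The activator and the chain-initiating enzyme of the APC/C both had libraries that did not overlap between the groups. Ube2c was at 60.2, 64.9, 44.3 and 51.6 CPM in Rb-null 1 to 4 and at 87.7, 71.2, 101 and 103 CPM in TET-MYCN 1 to 4. TET-MYCN 2 was nearest to the Rb-null libraries. The log2 fold change was 0.72 ± 0.15 (SE, 1.64-fold; unadjusted p = 9.03e-04, adjusted p = 0.155, edgeR), and it stayed between 0.63 (without Rb-null 3) and 0.81 (without TET-MYCN 2) on leaving out a library. The adjusted p (edgeR) was 0.0451 without TET-MYCN 2, where 132 of all genes were called (0.870%), and 0.0696 to 0.410 without any other library. Cdc20, which carries substrates to the APC/C and is the target of the spindle checkpoint, was at 61.8, 69.7, 36.9 and 46.2 CPM and at 86.2, 72.9, 83.2 and 113 CPM. Here too the groups did not overlap, by a margin of 69.7 to 72.9 CPM, and the log2 fold change was 0.73 ± 0.20 (adjusted p = 0.173, edgeR). Both genes overlap a neighbour on the opposite strand, and the use of strand in counting is not given in the sources used here. The neighbours' mean levels were 0.602 and 0.470 CPM for Tnnc2, beside Ube2c, and 10.2 and 11.2 CPM for Elovl1, beside Cdc20.

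Among the cyclins and Cdc25 phosphatases, the B cyclins and Cdc25c separated the groups and cyclin A2 did not. Cdc25c, a phosphatase that activates Cdk1, was at 16.4, 15.9, 11.0 and 13.4 CPM in Rb-null 1 to 4 and at 24.1, 18.1, 24.5 and 24.7 CPM in TET-MYCN 1 to 4 (log2 fold change 0.69 ± 0.16, adjusted p = 0.158, edgeR). Ccnb1, the main mitotic cyclin, was at 77.2, 82.3, 42.1 and 63.5 CPM and at 99.3, 93.9, 108 and 124 CPM (0.68 ± 0.19, adjusted p = 0.173, edgeR). Its lowest TET-MYCN library exceeded its highest Rb-null library by more than the gap between Rb-null 1 and 2. Ccnb2, the other B cyclin, had means of 32.7 ± 9.76 and 51.5 ± 5.80 CPM (SD, n = 4 each) without overlap, a log2 fold change of 0.65 ± 0.21. Cdc25b, which acts at mitotic entry, had 0.38 ± 0.18, with overlapping libraries and means of 38.6 and 50.3 CPM. The coding gene Spef1 overlaps Cdc25b on the opposite strand and was at 33.2 and 42.4 CPM, a log2 fold change of 0.35. The part of its reads in the Cdc25b counts was not tested. Ccna2, which is needed in S phase as well as for mitotic entry, was at 232, 261, 128 and 208 CPM and at 190, 228, 305 and 215 CPM. TET-MYCN 1 lay below 3 of the 4 Rb-null libraries, and the log2 fold change was 0.18 ± 0.22 (adjusted p = 0.742, edgeR), or 0.0055 without Rb-null 3, 0.026 without TET-MYCN 3 and 0.31 without Rb-null 2.

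**Figure D3:**
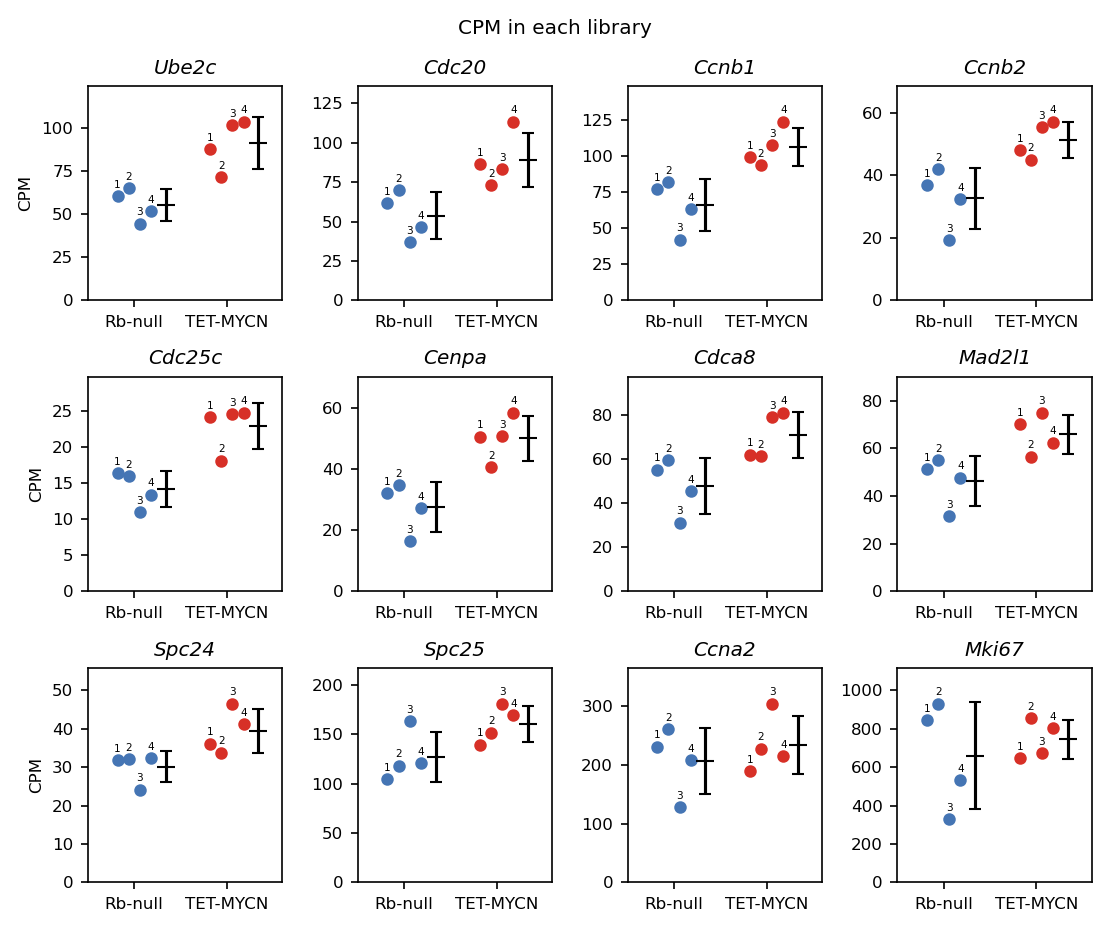
CPM of 12 mitosis genes in each library (points, numbered by replicate), with the mean and SD of the 4 libraries of each group at the right of its points; each y axis starts at 0. The groups do not overlap for the first 9 genes, Ube2c to Spc24, and overlap for Spc25, Ccna2 and Mki67.

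Kinetochore genes had a median log2 fold change of 0.57, and 6 of the 7 were higher at an unadjusted p under 0.05, against 8.06% of all genes tested. Cenpa, the centromeric histone H3 variant, was at 32.2, 34.7, 16.4 and 27.2 CPM in Rb-null 1 to 4 and at 50.6, 40.6, 50.7 and 58.4 CPM in TET-MYCN 1 to 4. The groups did not overlap and its log2 fold change was the largest of the 34, at 0.86 ± 0.21 (1.81-fold, adjusted p = 0.164, edgeR). Cenpf and Cenpe, large proteins of the outer kinetochore corona, had 0.65 ± 0.26 and 0.57 ± 0.22, and for both TET-MYCN 3 was the group's low library, at 117 CPM of Cenpf and 58.0 CPM of Cenpe.

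The 4 subunits of the Ndc80 complex, which binds microtubules, did not share 1 pattern. Nuf2 had a log2 fold change of 0.60 ± 0.23, and its partner Ndc80, at 45.2, 49.5, 20.1 and 33.8 CPM in Rb-null 1 to 4 and 33.3, 47.8, 63.2 and 44.4 CPM in TET-MYCN 1 to 4, had 0.34 ± 0.27. TET-MYCN 1 was below 3 Rb-null libraries for Ndc80, whose log2 fold change was 0.14 without Rb-null 3 and 0.17 without TET-MYCN 3. Spc24 was at 31.9, 32.1, 24.1 and 32.3 CPM and at 36.1, 33.8, 46.5 and 41.2 CPM, without overlap (0.39 ± 0.14, adjusted p = 0.239, edgeR). Spc25, the partner of Spc24, was the 1 gene of the 34 whose level was highest of its group in Rb-null 3. It was at 105, 118, 163 and 120 CPM in Rb-null 1 to 4 and at 139, 151, 181 and 169 CPM in TET-MYCN 1 to 4, and its log2 fold change of 0.34 ± 0.15 became 0.48 without Rb-null 3. Per kilobase of its transcript, Spc25 also had the highest level of the 34, at 106 CPM per kb in Rb-null, against 22.0 for Spc24, 16.9 for Ndc80 and 16.7 for Nuf2, with which its protein forms a complex of equal parts.

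The chromosomal passenger complex, which holds the kinase Aurkb at inner centromeres and then at the spindle midzone, had a median log2 fold change of 0.48. Cdca8, its borealin subunit, was at 55.3, 59.5, 31.1 and 45.6 CPM in Rb-null 1 to 4 and at 62.1, 61.5, 79.1 and 81.1 CPM in TET-MYCN 1 to 4 (0.57 ± 0.19, adjusted p = 0.227, edgeR). The groups did not overlap, but TET-MYCN 1 and 2 stood close to Rb-null 2. The coding gene 9930104L06Rik overlaps Cdca8 on the opposite strand and was at 26.6 and 26.9 CPM in the Rb-null and TET-MYCN groups. Birc5, or survivin, was at 46.8, 52.9, 27.5 and 40.7 CPM and at 59.8, 51.1, 67.1 and 71.2 CPM (0.57 ± 0.19), with TET-MYCN 2 below Rb-null 2. Incenp, the scaffold, had 0.38 ± 0.17, or 0.26 without TET-MYCN 4, and the kinase Aurkb itself had 0.35 ± 0.26, with TET-MYCN 1 at 57.9 CPM against 83.2 CPM in Rb-null 2. Aurkb was at 0.13 without Rb-null 3 and at 0.55 without Rb-null 2.

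Of the 4 spindle checkpoint genes, Mad2l1 separated the groups. This inhibitor of Cdc20 was at 51.2, 55.1, 31.5 and 47.6 CPM in Rb-null 1 to 4 and at 70.1, 56.5, 74.9 and 62.3 CPM in TET-MYCN 1 to 4 (0.51 ± 0.17, adjusted p = 0.220, edgeR). TET-MYCN 2 exceeded Rb-null 2 by little more than 1 CPM. Bub1b (BubR1), which joins Mad2l1 in the inhibitory complex, was at 69.3, 77.5, 36.8 and 52.4 CPM and at 72.6, 71.1, 77.5 and 103 CPM (0.46 ± 0.22), and TET-MYCN 4 stood above the rest. The kinase Ttk (Mps1), which starts checkpoint signalling, had 0.39 ± 0.23. Bub1, the kinase that recruits checkpoint proteins to kinetochores, was at 64.9, 66.1, 26.5 and 44.7 CPM and at 53.7, 59.6, 71.3 and 55.6 CPM. TET-MYCN 1, 2 and 4 were below both Rb-null 1 and 2, and its log2 fold change was 0.25 ± 0.25, or 0.036 without Rb-null 3, 0.15 without TET-MYCN 3, and 0.39 and 0.40 without Rb-null 1 and 2. Without Rb-null 3, Bub1b was at 0.29 and Ttk at 0.20.

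Spindle kinases and assembly factors had log2 fold changes between 0.40 and 0.51, and no gene of the 4 separated the groups. Plk1, the polo-like kinase of centrosomes and kinetochores, was at 56.7, 68.4, 41.6 and 51.0 CPM in Rb-null 1 to 4 and at 66.7, 63.0, 80.8 and 86.8 CPM in TET-MYCN 1 to 4 (0.45 ± 0.16, unadjusted p = 0.0203, adjusted p = 0.243, edgeR). Only Rb-null 2 reached into the TET-MYCN range. Tpx2, the activator of Aurka at spindle microtubules, was at 149, 155, 77.5 and 105 CPM and at 160.0, 155, 171 and 207 CPM (0.51 ± 0.21), with Rb-null 2 and TET-MYCN 2 level. Aurka itself had 0.40 ± 0.21, and Nusap1, which bundles spindle microtubules, had 0.42 ± 0.19. Without Rb-null 3 these were 0.23 and 0.27. The coding gene Oip5 overlaps Nusap1 on the opposite strand and was at 10.4 and 14.0 CPM in the Rb-null and TET-MYCN groups (0.42). Nusap1 was at 86.3 and 116 CPM.

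The 4 cytokinesis genes had nearly the same log2 fold change, from 0.41 to 0.44. Prc1, which bundles the microtubules of the spindle midzone, was at 113, 123, 66.7 and 83.1 CPM in Rb-null 1 to 4 and at 115, 121, 137 and 143 CPM in TET-MYCN 1 to 4 (0.42 ± 0.18). Racgap1, part of the centralspindlin complex, was at 168, 181, 95.03 and 126 CPM and at 171, 186, 200.3 and 197 CPM (0.41 ± 0.18). For both genes Rb-null 1 and 2 lay next to TET-MYCN 1 and 2 and Rb-null 3 and 4 lay far below. Ect2, the exchange factor that activates RhoA at the cleavage furrow, had 0.42 ± 0.20, and Anln, the furrow scaffold anillin, had 0.44 ± 0.23. Without Rb-null 3 the 4 values were 0.28 for Prc1, 0.25 for Racgap1, 0.27 for Ect2 and 0.25 for Anln.

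Both transcription factors of the late cell cycle had libraries that overlapped. Foxm1 was at 120, 125, 56.0 and 78.6 CPM in Rb-null 1 to 4 and at 104, 123, 111 and 146 CPM in TET-MYCN 1 to 4 (log2 fold change 0.35 ± 0.24, adjusted p = 0.508, edgeR). Mybl2 was at 39.7, 46.8, 24.6 and 32.6 CPM and at 41.2, 42.9, 42.9 and 57.2 CPM (0.36 ± 0.19, adjusted p = 0.392, edgeR). In both, Rb-null 2 was above 3 of the TET-MYCN libraries. Without Rb-null 3 the log2 fold change was 0.16 for Foxm1 and 0.21 for Mybl2, and Mybl2 was at 0.24 without TET-MYCN 4. Top2a, the topoisomerase that untangles sister chromatids, was at 474, 509, 241 and 313 CPM and at 447, 486, 457 and 591 CPM (0.37 ± 0.22). Only TET-MYCN 4 was above Rb-null 2, and without Rb-null 3 the value was 0.20. Mki67 had 0.18 ± 0.28, which became -0.05 without Rb-null 3, 0.080 without Rb-null 4, 0.099 without TET-MYCN 2, and 0.32 and 0.39 without Rb-null 1 and 2.

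**Figure D4:**
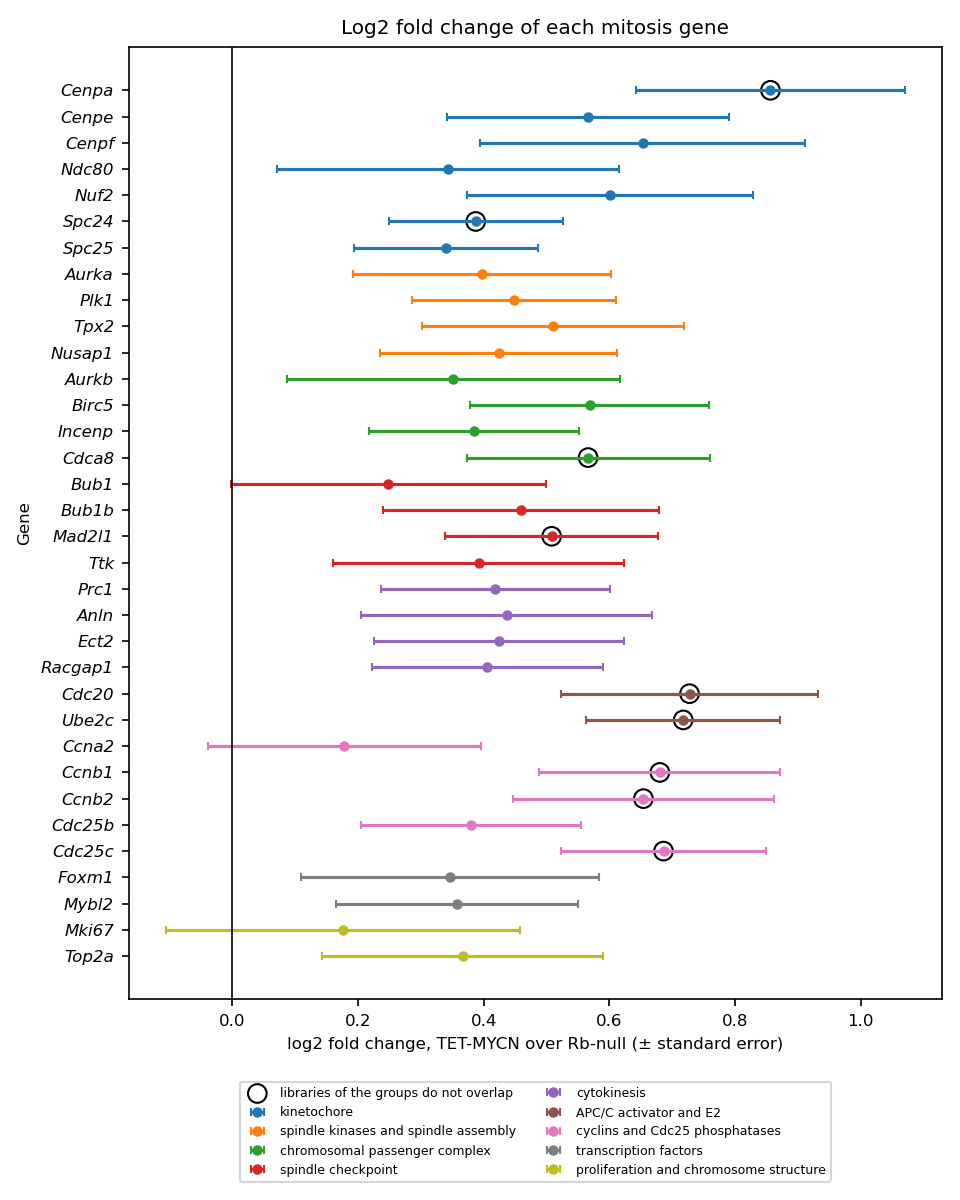
Log2 fold change of TET-MYCN over Rb-null for each of the 34 genes (points, coloured by role), with its standard error from edgeR (bars); rings mark the 9 genes whose libraries did not overlap. All points lie right of 0, from 0.18 for Mki67 and Ccna2 to 0.86 for Cenpa.

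The 26 genes fixed as a G1/S and replication list (MCM subunits, Pcna, cyclins E and others) had a smaller median log2 fold change than the mitosis genes, 0.26 against 0.42, a difference that was not tested, with 25 positive and 6 higher at an unadjusted p under 0.05 (23.1%, against 8.06% of all genes tested). The 2 with the smallest p were Tyms, thymidylate synthase, with 0.47 ± 0.16 and Chaf1b, a histone chaperone subunit, with 0.43 ± 0.16. The mean log2 CPM of these 26 was 6.84, 6.99, 6.21 and 6.65 in Rb-null 1 to 4 and 6.74, 6.82, 7.13 and 6.996 in TET-MYCN 1 to 4. The mean of the mitosis genes minus that of the G1/S genes was -0.62, -0.65, -0.81 and -0.79 in Rb-null 1 to 4 and -0.40, -0.47, -0.62 and -0.36 in TET-MYCN 1 to 4. By this difference Rb-null 1 and 2 and TET-MYCN 1 and 2 were further apart than by either mean, while TET-MYCN 3 stood level with Rb-null 1. The wider gap comes in part from the G1/S genes. Their mean was lower in TET-MYCN 1 and 2 (6.74 and 6.82) than in Rb-null 1 and 2 (6.84 and 6.99). Scaled to the G1/S mean in each library, 33 of 34 members were higher on average in TET-MYCN (16.1% of all genes tested). In 11 the scaled libraries did not overlap (0.821% of all genes tested). The G1/S mean was itself higher on average in TET-MYCN, so scaling to it lowered the other genes there. Before scaling, 52.2% of all genes tested had a positive log2 fold change. Both shares of all genes are thus low by construction and are not a like comparison for the members.

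The ratio of Ccnb1 to Ccna2 is given as a description only, since the pair was chosen after seeing that Ccnb1 separated the groups and Ccna2 did not. It was 0.334, 0.315, 0.329 and 0.306 in Rb-null 1 to 4 and 0.522, 0.412, 0.354 and 0.577 in TET-MYCN 1 to 4. Among the Rb-null libraries the highest level was 1.95 times the lowest for Ccnb1 and 2.04 times for Ccna2. These libraries were close to each other in this ratio, and all TET-MYCN libraries were above them, TET-MYCN 3 the nearest. The ratios of Ube2c to Mki67 and of Cenpa to Top2a were also taken, and in both the groups overlapped. Ube2c to Mki67 was 0.0713, 0.0698, 0.134 and 0.0970 in Rb-null 1 to 4. In TET-MYCN 1 to 4 it was 0.135, 0.0834, 0.151 and 0.128. Cenpa to Top2a was 0.0868 in Rb-null 4 and 0.0835 in TET-MYCN 2. Measured against the mean of the other 33 members, Cenpa was higher in TET-MYCN by 0.40, Cdc20 by 0.25 and Ccnb1 by 0.22 (differences of mean log2 CPM), and these 3 had groups that did not overlap (0.344% of all genes tested, set against the mean of the 34). The mean of the members was itself higher in TET-MYCN, which makes that share of all genes low by construction. At the other end, Ccna2 was lower by 0.31 (a difference of -0.31), and Mki67 by 0.24 (-0.24), with overlapping libraries.

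**Figure D5:**
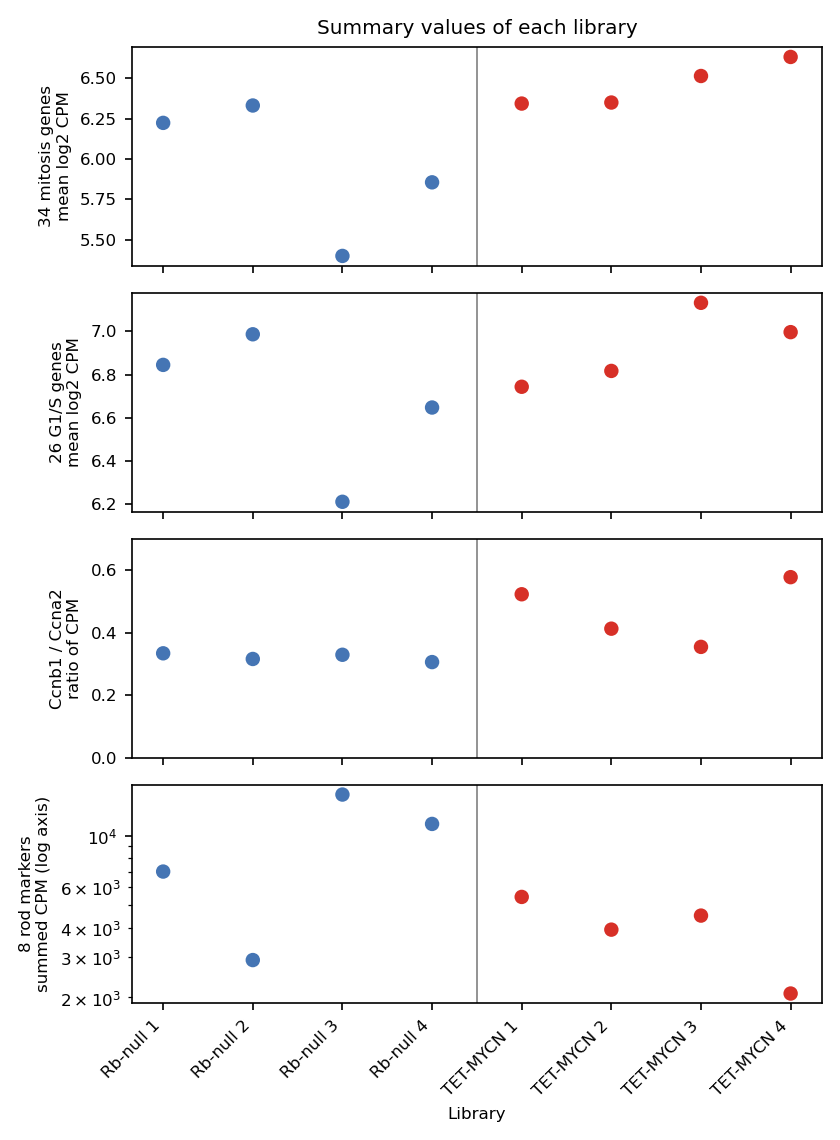
Per library (x axis; blue Rb-null, red TET-MYCN), from top to bottom: mean log2 CPM of the 34 mitosis genes, mean log2 CPM of the 26 G1/S genes, ratio of Ccnb1 to Ccna2 CPM, and summed CPM of 8 rod markers on a log axis. The ratio is flat in the Rb-null libraries at 0.306 to 0.334, whereas the means dip in Rb-null 3 and 4, where rod markers peak. Whether the dips and the rod markers are related was not tested.

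Other genes of mitosis, from lists that did not hold the members, had a median log2 fold change of 0.22. Of 91 such genes tested, 83 were above 0 (91.2%, against 52.2% of all genes tested) and 8 below, and 0 passed the adjusted test (edgeR). At an unadjusted p under 0.05, 15 were higher (16.5%, against 8.06%) and 0 lower. The groups did not overlap in 9 that were higher (9.89%, against 4.36%) and in 1 that was lower, where 3.29% of all genes were lower. The last, named for this after its values were seen, was the kinetochore gene Zwint, at 147 ± 6.26 and 133 ± 6.52 CPM (-0.14 ± 0.08, adjusted p = 0.447, edgeR). Among 29 further kinetochore genes the median was 0.29 and 7 were higher at an unadjusted p under 0.05. Hjurp, the chaperone that deposits Cenpa at centromeres, was at 26.7 ± 3.30 and 40.6 ± 7.29 CPM (0.61 ± 0.15, adjusted p = 0.164, edgeR), and Zwilch, a kinetochore protein of the RZZ complex, had 0.47 ± 0.14. The 14 further spindle genes had a median of 0.37, led by Dlgap5 with 0.67 ± 0.17 and Troap with 0.52 ± 0.17. For 13 condensin, cohesin protection and separase genes the median was 0.27, with 0.58 ± 0.20 for the securin gene Pttg1 and 0.55 ± 0.21 for the shugoshin gene Sgol2.

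The median of 17 APC/C subunits and regulators was 0.12, against 0.01 over all genes tested, and 14 of them (82.4%, against 52.2%) were above 0. At an unadjusted p under 0.05, 1 of them was higher (5.88%, against 8.06%), namely Ube2s, the enzyme that extends the ubiquitin chains begun by Ube2c, with 0.43 ± 0.16. Anapc5, a scaffold subunit, had 0.28 ± 0.13. In 5 further checkpoint genes the median was 0.12, with 0.50 ± 0.19 for the remodelling ATPase Trip13 and 0.22 ± 0.14 for Bub3. The 13 kinases, phosphatases and Cks proteins of mitotic entry and exit had a median of 0.22 and 0 at an unadjusted p under 0.05, with 0.46 ± 0.21 for Melk and 0.52 ± 0.24 for Cks2. Subunits of MuvB and DREAM, complexes that bind the CHR, had a median of 0.11 over 12 genes, with 0.47 ± 0.20 for Tfdp2 and 0.26 ± 0.13 for Tfdp1.

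Levels of the members can be compared only per length. Divided by the length of the longest principal transcript (GENCODE M21), the Rb-null means ran from 6.13 CPM per kb for Mad2l1 to 106 for Spc25. Next to Spc25 came Top2a at 73.6, Ccna2 at 69.8, Mki67 at 65.5 and Ube2c at 57.1 CPM per kb. In TET-MYCN the value for Ube2c was 94.0 CPM per kb, beside 94.8 for Top2a. The transcript form in use was not measured, so values of genes with long alternative 3′ ends, Mad2l1 among them at 7.56 kb, are the least certain.

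Levels of retinal cell type markers also differed between these bulk libraries. In such libraries fewer cells of a type and less RNA per cell cannot be told apart. The summed level of 8 rod markers, none at 0, was 7006, 2903, 15079 and 11256 CPM in Rb-null 1 to 4 and 5443, 3930, 4520 and 2081 CPM in TET-MYCN 1 to 4. All 8 were lower in TET-MYCN on average, and Rb-null 3 and 4, lowest for the mitosis genes, were the richest in rod transcripts. All 7 Müller glia markers were also lower, at 2813 to 4174 CPM in sum in Rb-null and 1435 to 2588 CPM in TET-MYCN, as were all 6 bipolar markers, at 226 to 674 and 179 to 300 CPM. The 10 retinal progenitor markers, none at 0, summed to 1206 to 1480 CPM in Rb-null and 1079 to 1453 CPM in TET-MYCN, with 8 of 10 higher, and the 6 amacrine markers summed to 850 to 998 and 703 to 1007 CPM. Other cells that can divide in this tissue were represented by 8 microglia and macrophage markers and by 6 endothelial markers. The microglia and macrophage markers summed to 147 to 313 CPM in Rb-null and 169 to 315 CPM in TET-MYCN, with 5 higher and 3 lower. Of these only Mmp12 passed the adjusted test (edgeR), with means of 0.151 CPM in Rb-null and 15.0 CPM in TET-MYCN. The endothelial markers were at 417 to 484 and 334 to 471 CPM with 0 of 6 higher. Lens markers were at 14.7, 233, 434 and 72.5 CPM in Rb-null 1 to 4 and 7.27 to 41.9 CPM in TET-MYCN. Markers of pigment epithelium and ciliary margin summed to 18.8 to 45.2 CPM in Rb-null and 17.7 to 99.2 CPM in TET-MYCN. Erythroid markers were at 0.668 to 6.10 and 0.403 to 1.08 CPM, with 1 of the 3 at 0 in every library. Rb-null 2, with rod markers below 3 of the 4 TET-MYCN libraries, had a mean of mitosis genes level with TET-MYCN 1 and 2. The part of any of these cell types in the differences of the mitosis genes was not tested.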

How the data were processed

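Each deposited file holds whole-number read counts of 1 library by gene symbol, not normalized by the authors. The submitters' processing notes name CASAVA 1.8.2, TopHat2 2.0.8b, HTSeq 0.5.4p3 and build mm9. The sources used here give neither the options, the annotation nor the strand setting. Reads outside any single gene (28.3% to 31.7% per file, of which multiply aligned reads were 9.05% to 12.8%) stayed out of library sizes and tests. Genes with near-identical copies are therefore uncertain, as are the 9 members that overlap a protein-coding gene (Nusap1, Cdca8, Prc1, Cdc20, Ube2c, Ccna2, Cdc25b, Cdc25c and Foxm1).

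Genes were filtered with filterByExpr and tested together with edgeR 4.0.16 in R 4.3.3 (quasi-likelihood, TMM, robust, no covariate), with Benjamini-Hochberg adjustment at 0.05. Log2 fold changes carry standard errors derived from F, and CPM means carry the SD of 4 libraries. Mean log2 CPM used a prior count of 2. DESeq2 1.42.0, limma-voom (limma 3.58.1) and other settings were alternatives. The fit was also run on counts simulated with 200 changed genes, each gene drawn independently of the others. Mitosis genes vary together, so that run does not show how the fit performs on them. Within groups, every pair of libraries differed beyond sampling noise (chi-square per degree of freedom of at least 18.1). Promoter motifs and transcript lengths came from reference tables of build GRCm38, not mm9, so no gene coordinates of the counts are given. Orientation of the promoter windows was checked against transcripts: in 26 of 29 member windows, downstream bases lay in a transcript of the gene.

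The members, their grouping and all lists were chosen with earlier results of these data known. The text names Mycn, Rb1, all members, with full values for at least the pair of smallest unadjusted p in each group, and the pair of smallest p in each further list. Mmp12 is also named, as the cell type marker that passed the adjusted test.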

Additional observations from a re-analysis of the deposited data

Results flagged for a closer look

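In groups of 4, a library was marked where its gap to the nearest other exceeded Dixon's 95% critical share of the group's range. Chance alone marks about 1 in 20 groups, and 5 of 72 were marked. Spc24 in Rb-null 3 was at 24.1 CPM, below 31.9 to 32.3 CPM in the other Rb-null libraries. Cdc25c in TET-MYCN 2 was at 18.1 CPM, below 24.1 to 24.7 CPM in the others of its group. TET-MYCN 4 stood above its group for Incenp (128 against 91.2 to 97.3 CPM), Anln (102 against 81.0 to 84.4 CPM) and Mybl2 (57.2 against 41.2 to 42.9 CPM).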

How the results depend on the processing

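Over the members' log2 fold changes, 571 of 578 values under alternatives kept their sign and their side of the threshold, 6 passed it and 1 changed sign. The last was Mki67, at -0.046 without Rb-null 3 and up to 0.3887 without Rb-null 2, and the 6 were Cenpa, Cdc20, Ube2c, Ccnb1 and Cdc25c with DESeq2 (adjusted p of 0.0133, 0.0378, 0.00431, 0.0391 and 0.0114) and Ube2c without TET-MYCN 2. The cause was not tested. Members called numbered 0 in the main test, 5 with DESeq2 and 0 to 1 on leaving out a library. Members higher at an unadjusted p under 0.05 numbered 19, and 10 to 27 on leaving out a library. The share of all genes tested that were higher was 8.06%, and 5.22% to 13.1% on leaving out a library. Their median log2 fold change was 0.42, and 0.28 (without Rb-null 3) to 0.57 (without Rb-null 2) on leaving out a library. All genes called numbered 9, and 17 without a filter on low counts, 530 with DESeq2 (323 higher, 207 lower), 0 with limma-voom, and 0 to 230 on leaving out a library: 1 without Rb-null 1, 132 without TET-MYCN 2, 230 without TET-MYCN 3 and 0 without any other. With the replicate number as a block, 3 genes and 0 members were called. There 15 members were higher at an unadjusted p under 0.05, against 6.18% of all genes tested. Same-numbered libraries did not deviate together (correlations of -0.295 to -0.040), and 0 of 4 Rb-null libraries correlated best with their own number. This gave no sign that the numbers pair libraries, but with 4 libraries a group it cannot exclude a pairing. An alternative added after seeing the data left out Rb-null 2 and 3, richest in lens markers, and called 0 genes and 0 members. In it 17 members were higher at an unadjusted p under 0.05, against 4.12% of all genes tested. Counting matches before the gene start only gave 29.6% of member promoters with a CHR in place of 74.1%, since most matches lie past the start. Depth did not limit the members, whose counts were 168 or more in every library.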
